A study of Mus musculus with 2 samples.

Results

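The 8 genes described here, Dazl, Boll, Ddx4, Rbm46, Ythdc2, Meioc, Stra8 and Dazap1, encode regulators of RNA at germ cell entry into meiosis, or proteins tied to them. They were looked up by symbol in the gene table deposited with the ELAVL2 RIP peaks, which pairs 11969 genes with a peak. Of the 8 genes, 6 had rows under their own symbol, 42 rows in all. In 40 of these rows the peak overlapped the gene, and in the other 2 it lay upstream of Boll. Meioc had no row under that name, but the table listed the gene under its older symbol Gm1564 with 1 overlapping peak. Stra8 had no row under any symbol.

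RNA immunoprecipitation followed by sequencing (RIP-seq) recovers the RNA that comes down with an antibody to an RNA-binding protein and sets it against the RNA of the whole lysate. The series holds 1 RIP sample, made with an antibody to ELAVL2, and 1 input sample, both from ovaries of newborn mice (postnatal day 0). Per the labels, 100 ovaries were pooled in the lysate and 5% of it was kept as input. The labels name no strain, genotype or drug. There was no control pulldown, so RNA held by ELAVL2 and RNA retained in other ways cannot be told apart, and with 1 sample in each arm no value has a replicate check or a test. Whole ovary holds germ and somatic cells. Of 8 germ cell and oocyte markers, 5 were overlapped by a peak, but Dazl and Ddx4 are among them, and without these it was 3 of 6. Of 26 markers of pregranulosa, stromal, endothelial, epithelial and blood cells 2 were overlapped, Tek and Cdh1, where the share of all protein-coding genes was 23.4%. A peak marks RIP signal above the input, not expression. A marker without a peak may be low in the sample or present without enrichment, and these were not told apart. For any gene, fewer cells that express it and less of its RNA in each cell cannot be told apart in such a sample.

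ELAVL2 belongs to the Hu family of proteins, which bind U-rich and AU-rich stretches of messenger RNA and act on its stability, splicing and translation. DAZL and BOLL are members of the DAZ family, germ cell proteins that bind messenger RNAs downstream of the coding sequence and act on their translation. YTHDC2, an RNA helicase with a YTH domain, works with MEIOC and RBM46 to end the mitotic programme as germ cells enter meiotic prophase. STRA8 is the retinoic acid-responsive transcription regulator that starts the meiotic programme, and in the mouse ovary its expression comes before birth. DDX4 (VASA) is the germ cell RNA helicase of germ granules, and DAZAP1 is a widely expressed RNA-binding protein first found as a partner of DAZ proteins.

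Each peak is described by numbers that the authors deposited. The pileup is the number of RIP tags that overlap at the summit once repeated tags of a position had been cut to 1 per strand. The fold enrichment is the pileup over the local input level, with 1 added to both. The local input level is the largest of the input at the summit, its averages over 1000 and 10000 bp, and the genome-wide background. The input level, recovered here from pileup and fold, is in input tags scaled to the depth of the RIP, where 1 input tag counts as 0.708. After reduction the RIP held 13787676 tags and the input 19479946. The intervals given with folds are exact 95% Poisson intervals of the pileup with the input level held fixed. They cover the counting of tags at the summit only, not the input and not the spread between experiments. Coordinates are on mm10.

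A peak overlapped 6 of the 8 genes by symbol, and 7 of 8 when Meioc was counted under its older symbol. Over all genes the share was 11.5% of 49943 reference genes, 23.4% of the 21887 protein-coding ones, and 30.9% of the 10181 protein-coding genes whose length lay in the range of these 8 (14228 to 120224 bp). At least 5 peaks overlapped 5 of the 8 genes, against 7.22% of protein-coding genes and 9.74% of those in the same length range. Merging peaks within 500 bp left 6 in Dazl, 4 each in Rbm46 and Ythdc2, and 3 each in Boll and Dazap1. Of the 8 genes, only Dazl then held at least 5, and the shares over all genes were not recounted with merging. A peak with a fold of at least 4 was found in 4 of the 8, Ythdc2, Boll, Dazl and Dazap1, against 13.5% of protein-coding genes. From peaks paired with no other gene, 4 of the 8 remained. Every peak in Ddx4 and Dazap1 was also paired with a gene outside it. The share over all genes was not computed for such peaks. All 40 peaks overlapped only 1 gene. None of the shares over all genes given here was matched for expression in the ovary.

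**Figure D1:**
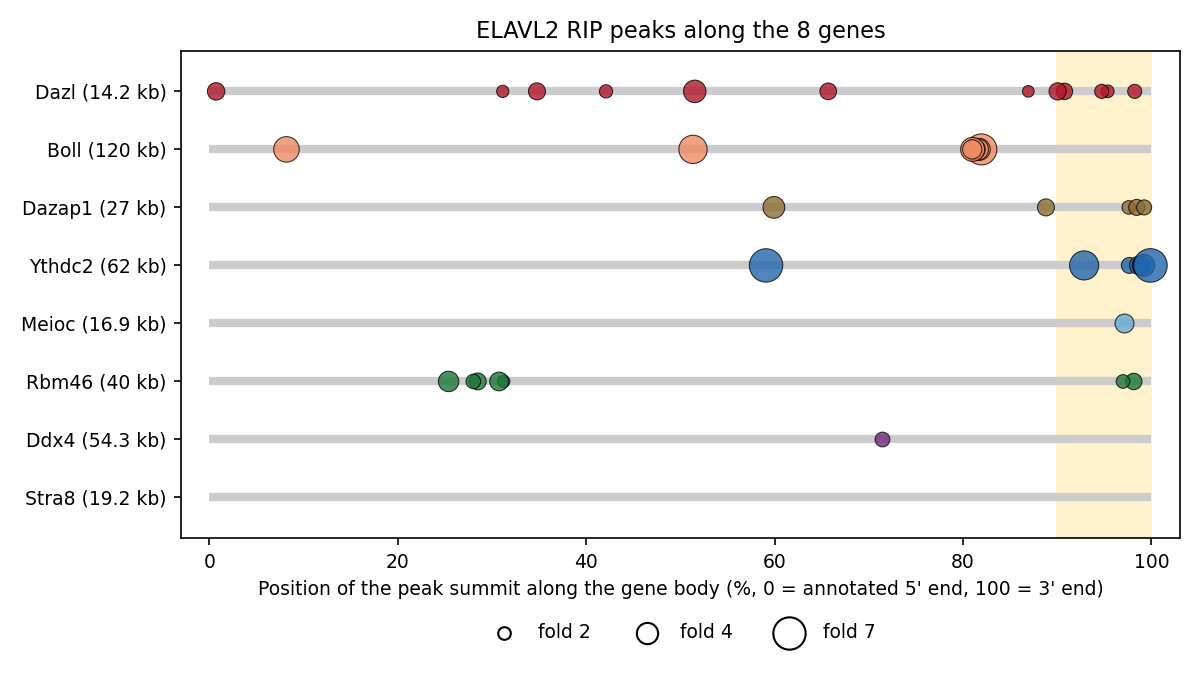
Summits of the peaks inside each of the 8 genes, drawn along the gene body of the authors' table from the 5' end (0%) to the 3' end (100%), with circle area growing with fold enrichment and the last 10% shaded. Gene lengths are those of the reference annotation, Meioc is the gene listed as Gm1564, and Stra8 has no peak. The peaks of Ythdc2 gather at the 3' end, those of Dazl run over the whole gene, and 6 of the 8 in Boll sit together at 81.0 to 81.9%.

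Dazl, the translational regulator needed for germ cell development in both sexes, held the most peaks (ENSMUSG00000010592, chromosome 17, 50279394 to 50293599, minus strand). There were 12 peaks in a gene of 14.2 kb, and 1.32% of protein-coding genes held at least that many. The count was above that of 94.9% of the 6091 symbols with an overlapping peak, and the density of 0.845 peaks per kb was above that of 93.5% of them. Dazl was abundant in both samples at or around these sites: the RIP pileup ran from 40 to 78 with a median of 46, and the input level from 9.20 to 33.3 with a median of 18.8. The input level of every Dazl peak was above that of 62.1% of all peaks in the list.

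The largest Dazl fold, 4.31 (3.15 to 5.78), stood near the middle of the gene at 50286241 to 50286293. There the RIP pileup was 43, the input level 9.20 and the -log10 q 11.1, higher than in 96.4% of all peaks. The next by fold lay at the very 5' end, with its summit 102 bp from the annotated start (50293405 to 50293521). Its fold was 3.08 (2.30 to 4.04), with 50 RIP tags over an input level of 15.6. At the 3' end the summit of the peak with the largest pileup was 252 bp from the annotated end (50279415 to 50279808), with 78 RIP tags over an input level of 33.3 and a fold of 2.31 (1.83 to 2.87). The lowest fold was 1.80 (1.32 to 2.40), where 44 RIP tags stood over an input level of 24.1. These are the extremes of 12 peaks, and no test was made between them.

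By position, 5 of the 12 Dazl peaks lay in the last 10% of the gene and 7 within 5 kb of its 3' end. The other 5 were spread from 0.72% to 51.5% of the body, 1 of them in the first 10%. No Dazl peak was paired with any other gene. When peaks less than 500 bp apart were joined, the 12 became 6.

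Boll, the DAZ family member closest to the ancestral gene, differed from Dazl in the level of both samples (ENSMUSG00000025977, chromosome 1, 55248658 to 55363469, minus strand). It held 8 peaks in a body of 120 kb, each with few tags: RIP pileups ran from 5 to 15 and input levels from 0.369 to 2.12. No Boll pileup reached the lowest of Dazl, and no Boll input level reached the lowest of Dazl. Boll folds were 3.51 to 6.62 with a median of 4.42, against a median of 2.58 in Dazl, but the levels at which they were measured did not overlap.

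Of the Boll peaks, 6 formed a row from 55269358 to 55270571, at 81.0 to 81.9% of the gene body and 20732 bp or more from the annotated 3' end of the table. The first of this row had the largest Boll fold, 6.62 (3.89 to 10.7), with 15 RIP tags over an input level of 1.42. The last had 5 RIP tags over an input level of 0.708, a fold of 3.51 (1.54 to 7.42) with a -log10 q of 1.31. The remaining peaks stood alone at 51.3% and 8.19% of the body, with folds of 5.86 and 5.11 from 9 and 6 RIP tags. The intervals of all 8 Boll folds overlapped one another. The table also paired 7 of the 8 peaks with a gene outside Boll, and 1 peak was left when only peaks paired with exactly 1 gene were kept. At a -log10 q of at least 5, 1 of the 8 was left as well. The peaks outside the gene, 1943 and 2416 bp upstream of its annotated start, had folds of 3.51 and 5.11 from 5 and 6 RIP tags.

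The reference annotation gives Boll a longer 3' end than the authors' table. A further peak lay inside that longer body, 67 bp from its 3' end (55243618 to 55243710), with a fold of 4.36 from 10 RIP tags. The authors' table placed this peak inside the neighbouring gene Mars2 alone.

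Dazap1 (ENSMUSG00000069565, chromosome 10, 80261486 to 80288408, plus strand) held 5 peaks, 3 of them in the last 10% of the gene. These had RIP pileups of 51, 47 and 73 over input levels of 22.6, 16.5 and 28.3, and folds of 2.20, 2.74 and 2.52. The strongest by -log10 q (7.95) was the last, whose summit lay 209 bp from the annotated 3' end. The largest fold, 4.14 (2.12 to 7.49), came from 9 RIP tags over an input level of 1.42 in the middle of the gene. Its best fold from 20 or more RIP tags was 2.97. The intervals of all 5 Dazap1 folds overlapped. The RIP pileups and input levels of its 3 peaks at the 3' end lay inside the ranges of Dazl.

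Ythdc2 had the largest fold of the 8 genes (ENSMUSG00000034653, chromosome 18, 44827746 to 44889724, plus strand). It held 7 peaks, 6 of them in the last 10% of a 62.0 kb gene, and none was paired with another gene. The peak nearest the 3' end, with its summit 68 bp from the annotated end (44889620 to 44889690), had 22 RIP tags over an input level of 2.12. Its fold was 7.36 (4.73 to 10.98) and its -log10 q of 10.98 was higher than in 96.3% of all peaks. Further in, the RIP pileup rose to 40 at a summit 683 bp from the end, where the input level was 12.03 and the fold 3.15 (2.27 to 4.26).

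The other Ythdc2 peaks near the 3' end had folds of 4.16, 3.34, 2.72 and 6.08, with the last of these 4430 bp from the end. Only 1 peak stood apart, at 59.1% of the body, where 9 RIP tags over the genome-wide background of 0.369 gave a fold of 7.31 (3.74 to 13.2). The lowest Ythdc2 fold, 2.72, had an interval of 1.73 to 4.10. Within 1 kb of the 3' end the input level ranged from 2.12 to 12.03 while the RIP pileup ranged from 22 to 40.

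Meioc, the YTHDC2 partner needed for meiotic prophase, was found as Gm1564 (ENSMUSG00000051455, chromosome 11, 102663716 to 102682237, plus strand). Its single peak (102681697 to 102681749) had its summit 533 bp from the annotated 3' end, at 97.1% of the body. The RIP pileup was 17, the input level 4.25, the fold 3.43 (2.08 to 5.38) and the -log10 q 3.06. The peak overlapped no other gene and was also paired with Ccdc43, downstream of it.

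Rbm46, whose protein binds RNA together with the YTHDC2 complex, held 7 peaks in 2 places (ENSMUSG00000033882, chromosome 3, 82837228 to 82876483, minus strand). One group of 5 lay between 82864146 and 82866528, at 25.4 to 31.2% of the gene body. Their RIP pileups were 34, 31, 27, 44 and 35 over input levels of 17.0, 8.46, 8.49, 17.7 and 8.49. The last of them had the largest Rbm46 fold in the authors' gene body, 3.79 (2.67 to 5.23), with a -log10 q of 7.56, and the first had the lowest, 1.95 (1.36 to 2.70). The intervals of the highest and lowest fold overlapped.

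The other Rbm46 group was at the 3' end, with summits 737 and 1184 bp from the annotated end, RIP pileups of 46 and 39, and folds of 2.84 and 2.22. As with Boll, the reference gene body reaches farther at the 3' end than that of the table. In the added stretch were another 2 peaks, 351 and 620 bp from the reference 3' end, which the authors' table paired with Gm43348. The first of them (82836833 to 82836885) had 41 RIP tags over an input level of 8.14, which gave a fold of 4.595 with a -log10 q of 11.5, above every Rbm46 peak of the table. The second had a fold of 2.28 from 32 RIP tags.

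Ddx4, the germ cell helicase, held 1 peak in a gene of 54.3 kb (ENSMUSG00000021758, chromosome 13, 112598333 to 112652310, minus strand). It lay at 71.4% of the body (112613691 to 112613779), with 38 RIP tags over an input level of 14.9, a fold of 2.46 (1.76 to 3.35) with a -log10 q of 3.57. The input level there was inside the range of Dazl, and the fold was above that of 45.7% of all peaks whose input level was within 10% of its own. No peak lay within 5 kb of its 3' end. The peak was also paired with Il31ra, which it did not overlap.

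Stra8 (chromosome 6, 34920163 to 34939344 in the reference) held no peak in its reference body either, and the nearest called peak was 30480 bp away, inside 2010107G12Rik. The level of Stra8 in the input was not analysed here, so a transcript at low level and a transcript without enrichment cannot be told apart.

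**Figure D2:**
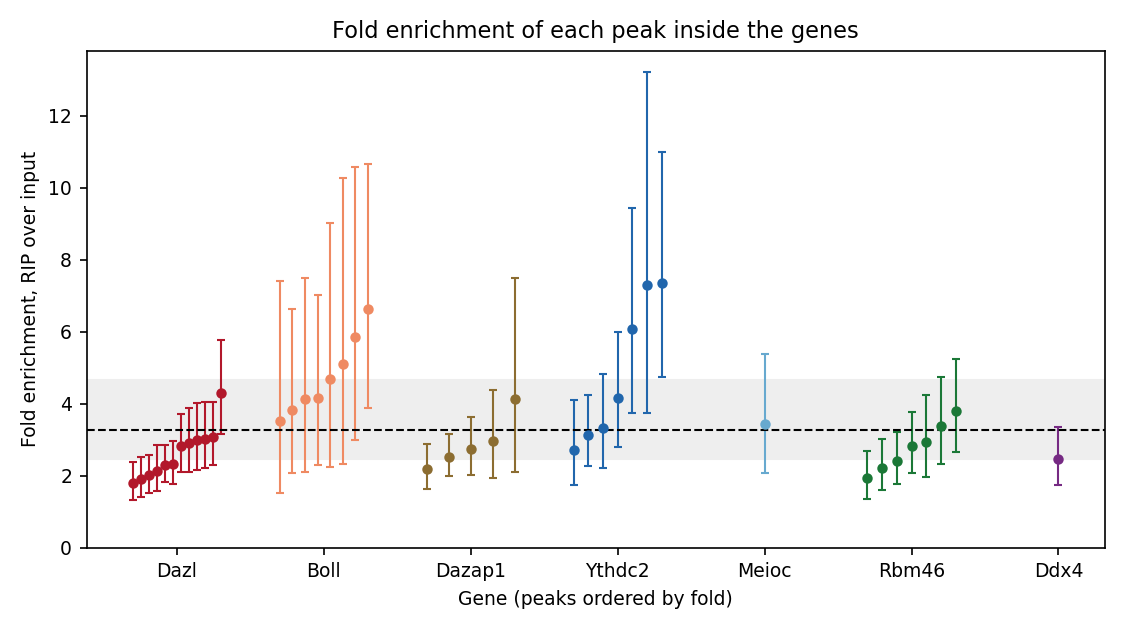
Fold enrichment of every peak inside the genes (points, ordered by fold within a gene), with exact 95% Poisson intervals of the RIP pileup as bars. The dashed line is the median (3.28) and the grey band the quartiles of the 19371 peaks that overlap exactly 1 gene. Most Dazl and Rbm46 points lie below the line, and all Boll points lie above it with wide intervals. The line is not matched for input level, and at low input levels the q cutoff of 0.05 lets only high folds pass. The lowest Boll point, 3.51 at an input level of 0.708, is already above the line. No called peak of nearly the same input level had a lower fold. The side of the line is thus not a trait of Boll alone.

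Pooled and not matched for input level, the 40 peaks had values near those of other peaks inside genes. The pool joins genes of unlike input level, such as Dazl and Boll. The median fold of the 40 was 3.004 (quartiles 2.45 and 4.14), against 3.28 (2.47 and 4.66) for all 19371 peaks that overlap exactly 1 gene. Their median input level was 10.6, against 7.79. A fold of at least 4 was seen in 12 of the 40, against 35.5%, and a pileup of at least 20 in 29 of 40 (72.5%), against 65.7%. The summit lay in the last 10% of the gene in 16 of 40 (40.0%, exact binomial 95% interval 24.9 to 56.7, counting error only), against 46.6%. It lay in the first 10% in 2 of 40 (5.00%), against 4.68%. Peaks of 1 transcript are not independent of one another, and Dazl gave 12 of the 40. Without it the median fold was 3.45 and the last-10% share 39.3%.

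The genes differed from each other in position. In the last 10% were 6 of 7 peaks in Ythdc2, 3 of 5 in Dazap1, 5 of 12 in Dazl, 2 of 7 in Rbm46, the 1 of Meioc, 0 of 8 in Boll and 0 of 1 in Ddx4. Exon annotation was not used here, and the peaks carry no strand, so these are positions along whole gene bodies with their introns. No peak lay in the promoter windows that the RefSeq sequence table of GRCm38.p6 gives for 7 of the 8 genes.

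The fold that a peak could reach fell with its input level, and Boll and Dazl sat at opposite ends of that scale. In part this is built in by the processing. A pileup is capped at 100, which limits the fold at high input levels, as at the Dazl 3' end peak with 78 RIP tags. At low input levels the q cutoff of 0.05 lets only high folds pass. When all peaks were sorted by input level into quintiles, the median fold was, from low to high input, 5.85, 4.96, 3.60, 2.76 and 2.14, and the highest fold in the top quintile was 4.47. All 8 Boll peaks fell in the lower 2 quintiles, and all 12 Dazl peaks in the upper 2. The peaks of Ythdc2 were spread over the lower 4 and those of Rbm46 over the upper 3.

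A quintile spans a range of input levels, 15.6 to 61.6 in the top one, so where a peak lies within it bears on its rank there. Each peak was therefore also ranked among all peaks whose input level was within 10% of its own, a choice made after seeing the data. Above the median fold of such peaks were 9 of 12 Dazl, 5 of 7 Ythdc2, 4 of 7 Rbm46, 3 of 5 Dazap1, 2 of 8 Boll and 0 of 1 Ddx4 peaks. The middle Dazl peak, with its fold of 4.31, was above 96.8% of them and the 5' end peak above 91.7%. The 3' end peak of Ythdc2 was above 93.0%, and the best Boll peak above 77.0%. The median of these ranks was 79.6% over the Dazl peaks and 17.8% over the Boll peaks, while the deposited folds had the higher median in Boll. These ranks are descriptions of peaks that passed the authors' threshold, and the peaks of a gene share 1 transcript.

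**Figure D3:**
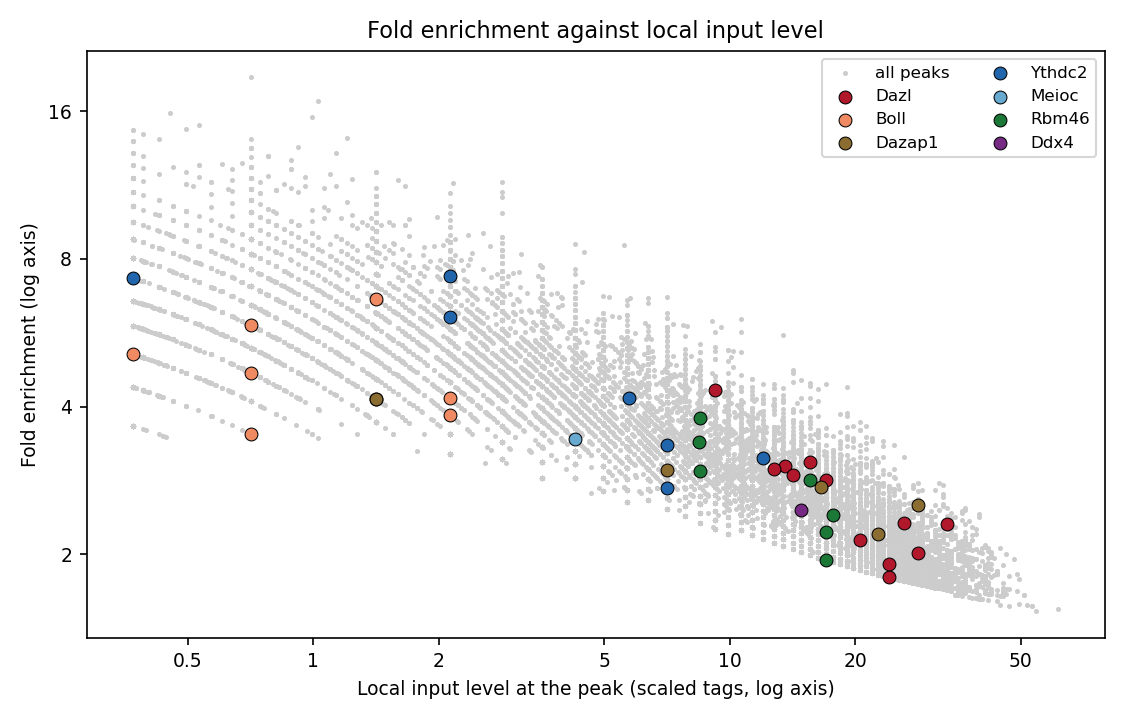
Fold enrichment against local input level, both on log axes, for all 28332 peaks (grey) and for the peaks inside the named genes (coloured). Boll lies at the left with input levels up to 2.12, Dazl at the right from 9.20 upward, and Ythdc2 spans from 0.369 to 12.03.

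Related genes were read from lists of the surrounding pathway. The share of all protein-coding genes set beside each list was not matched to it for gene length or for expression in the ovary. Of 36 genes of retinoic acid and BMP signalling and of the transcriptional control of meiotic entry, 10 were overlapped by a peak (27.8%), near the 23.4% of all protein-coding genes. The largest folds were in Dmrt1 (7.61 from 12 RIP tags), a transcription factor of the gonads, Mga (6.72 from 20), a repressor of meiotic genes in stem cells, and Rnf2 (6.48 from 33), a RING subunit of Polycomb repressive complexes. Mga held 12 peaks and Rnf2 held 11. All 16 retinoid receptors, carriers and enzymes of the list were without an overlapping peak, and 4 of them were paired with peaks outside their bodies. This subgroup was picked after its values were seen.

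Of 24 other genes of early meiotic prophase, 15 were overlapped, against 23.4% of protein-coding genes. They were led by Hormad1 (9.95 from 16 RIP tags) and Hormad2 (8.04 from 10), of the chromosome axis, and Tex14 (7.61 from 12), of the germ cell bridges. Of 10 further messengers listed as DAZL targets, 8 were overlapped, against the same 23.4%. They were led by Tex14, Sycp1 (5.27 from 8) and Tex11 (5.27 from 8). The overlapped genes Sycp1, Sycp3, Tex11 and Tex14 are in both this list and that of early meiotic prophase, so the counts are not separate. Sycp3, the axis protein gene whose messenger DAZL is known to act on, held 7 peaks with a best fold of 3.53 from 25 RIP tags, at a site overlapping 2 genes.

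Of 6 further partners and targets listed for the YTHDC2, MEIOC and RBM46 complex, 4 were overlapped, against 23.4% of protein-coding genes. Xrn1, the exonuclease that YTHDC2 binds, had the largest fold of that list, 8.15 (4.61 to 13.5) from 13 RIP tags over an input level of 0.718, followed by Ythdc2 and Rbm46 themselves and by Meioc as Gm1564 (3.43). Upf1 (3.38), Cdk1 (2.34) and Ccnb1 (1.83) followed at input levels of 9.34, 25.5 and 29.0. Ccna2, the mitotic cyclin whose messenger the complex acts on, and Ccnd2 held no peak. When at least 20 RIP tags are required, the folds of Dmrt1, Hormad1, Hormad2, Tex14, Sycp1, Tex11 and Xrn1 given here drop out, since each rests on fewer tags.

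Among 11 relatives and associates of these proteins, 5 were overlapped, against 23.4% of protein-coding genes, and none had a fold of 4. The cytoplasmic m6A readers Ythdf1, Ythdf2 and Ythdf3 held 4, 1 and 3 peaks with best folds of 2.01, 1.97 and 3.15, at input levels of 21.9, 32.6 and 12.03. The best Ythdf3 peak had the same pileup of 40 and the same input level as a peak of Ythdc2, which by definition gives the same fold of 3.15. Dazap2 held 6 peaks (best fold 2.26) and Pum2, which binds DAZ proteins, 6 (2.84). Ythdc1, Rbm47, Ddx3x, Ddx3y and Pabpc1 had no peak paired with them, and A1cf had peaks only outside it, the closest 8153 bp away.

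**Figure D4:**
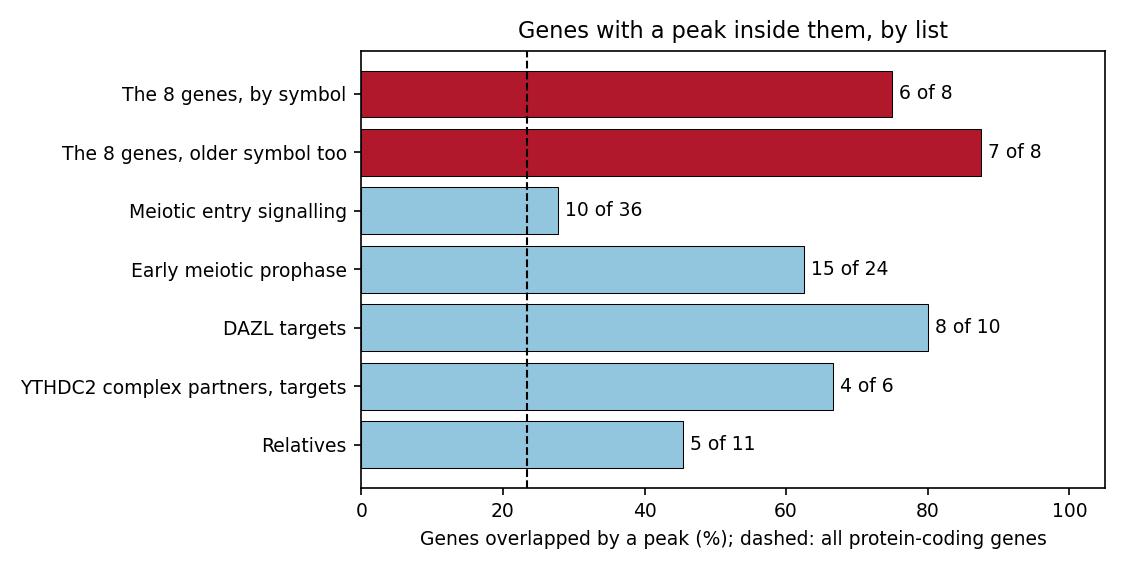
Percent of genes in each list with an overlapping peak, with the counts at the bar ends. The 2 red bars are the 8 genes by symbol and with the older symbol, the blue bars are the other genes of each list without any of the 8, and the dashed line is the 23.4% of protein-coding genes.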

How the data were processed

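Per the file headers, peaks were called by the authors with MACS2 2.1.0.20140616 at a q cutoff of 0.05, from 3 lanes of each sample in 1 pool. Single tags of 36 bases were extended to 50 bp, with 1 tag kept per position and strand. That left 7.98% of RIP and 9.26% of input tags and caps a pileup at 100. The caller ignores splicing and strand, so 1 spliced transcript can give several peaks. Alignment with TopHat2 2.0.8b to mm10 is per the submitters' processing notes. The pileup is a signal, the fold enrichment a ratio, and the q-value a -log10, all deposited by the authors per peak. The pairing of peaks with genes is by a method not given in the sources used here.

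Repeated rows of the gene table (42176 of 85730) were dropped. A peak overlapped a gene where the table placed it inside it or across an end. Input levels came from pileup and fold. Of 6091 overlapped symbols, 94.3% matched the RefSeq table of GRCm38.p6, directly or by an older symbol of 1 gene only. The code was tested on simulated data. The 8 genes and all lists were chosen with earlier results of these data known. Lists named the 3 genes with the largest fold and all of the relatives, and Sycp3, Upf1, Cdk1, Ccnb1, Ccna2, Ccnd2, Tek and Cdh1 were added after their values were seen. Genome sequence under the peaks was not used here. The work was done in Python 3.11.15 with scipy 1.17.1, pandas 2.3.3, numpy 2.4.6 and, for figures, matplotlib 3.10.9.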

Additional observations from a re-analysis of the deposited data

How the results depend on the processing

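The number of the 8 genes with a peak was 6 in the main count, 4 at a fold of at least 4 or when paired with exactly 1 gene, 5 with a pileup of at least 20 or a -log10 q of at least 5, and 7 with reference gene bodies or the older symbol, which was chosen after seeing the data. The 40 peaks became 19 at a -log10 q of at least 5, 12 at a fold of at least 4, 25 when paired with exactly 1 gene and 21 when peaks within 500 bp were merged. The 42 of 86 list genes became 24, 18 and 19 at the first 3 of these settings. These lists include Ddx4, Ythdc2, Rbm46 and Meioc, the last overlapped under its older symbol. Over all protein-coding genes the share was 23.4% for at least 1 overlapping peak and 13.5% for a fold of at least 4. It was not computed at the other settings.

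The median fold of the peaks, 3.004, became 3.02 at a -log10 q of at least 2 and with the older symbol, 3.08 at a -log10 q of at least 5 and with merged peaks, 3.05 with all paired peaks and with reference bodies, 4.90 at a fold of at least 4, 3.19 without the pseudocount, 2.98 from peaks paired with 1 gene, 2.84 at a pileup of at least 20 and 3.45 without Dazl (chosen after seeing the data). The median over genes of the best fold, 4.23, became 4.31 at a -log10 q of at least 5 and with reference bodies, 5.47 at a fold of at least 4, 5.52 without the pseudocount, 4.14 with the older symbol, 4.71 from peaks paired with 1 gene only and 3.79 at a pileup of at least 20. Without the pseudocount the best fold was 24.4 in Ythdc2 and 16.3 in Boll, against 4.67 in Dazl. The Ythdc2 and Boll values came from peaks of 9 and 6 RIP tags over the genome-wide background of 0.369. They are not the peaks with the best fold in the main setting, which had 10.4 in Ythdc2 and 10.6 in Boll without the pseudocount.

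The share in the last 10% of the gene stayed between 39.3% and 51.7% over the alternatives run, inside the interval of the main value. These alternatives reuse the same 40 peaks in whole or in part and the interval is wide, so they are not separate checks. The share within 5 kb of the 3' end, a different measure of position, was 47.5%. Over the 6 genes, 22 of 40 peaks were above the median fold of their input quintile and 23 above that of peaks within 10% of their input level. The stricter thresholds keep fewer peaks by construction. Where a gene kept no peak, its best fold has no value. No paired analysis was possible because each arm had 1 sample. Pileups of 5 to 15 limit the precision of the Boll folds.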
